A study of Mus musculus with 2 samples.

Results

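The genes of 10 secreted proteins of the CCN, thrombospondin, Sparc and fibronectin families were followed in sorted hair follicle cells of mouse pups at postnatal day 4. The genes are Ccn1, Ccn2, Ccn3, Ccn4, Ccn5, Thbs1, Thbs2, Thbs3, Sparc and Fn1. They were chosen by name, with earlier results from these arrays known, so every ratio given here describes these arrays and none is a test. All 10 genes were found among 18193 genes on the array, through 21 probe sets that the platform annotation assigns to 1 of these genes alone. The CCN genes are also known by their older names Cyr61, Ctgf, Nov, Wisp1 and Wisp2. A gene is called higher in ORS or in early bulge by its signal on the array of that population.

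The early bulge sample came from the follicle region where stem cells reside and was sorted as cells with high green and high red fluorescence. The comparison sample, non-bulge cells of the outer root sheath (ORS), the outer epithelial layer of the follicle, was sorted as high red and negative for green. Both came from back skin of CD-1 pups carrying K14-RFP, a red reporter driven by the keratin 14 promoter of basal keratinocytes, and Sox9-EGFP, a green reporter for the stem cell transcription factor Sox9. Dispase and collagenase treatment with a slow spin freed whole follicles from the dermis, trypsin broke them into single cells, and the sort left out cells that were dead or were large and differentiated. The labels do not say how many pups were pooled. With a single array (1 per population), no ratio can be set against a spread between replicates, and p-values are not given.

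These proteins are mostly matricellular: they sit in the extracellular matrix and tune how cells adhere and respond to growth factors, rather than building its load-bearing fibres. CCN proteins are assembled from modules resembling an IGF-binding domain, a von Willebrand type C domain, a thrombospondin type 1 repeat and a C-terminal cysteine knot, and Ccn5 lacks the last of these. Thrombospondins bind calcium and integrins, and Thbs1 and Thbs2 also bind Cd36 and Cd47, Sparc binds collagen, and fibronectin forms fibrils on which cells attach through integrins. In skin, fibroblasts are a main source of Sparc, fibronectin and thrombospondin 2, while Ccn1 and Ccn2 are widely used as readouts of the transcription co-activators Yap and Taz.

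Most of the 10 genes had the higher signal in ORS, by amounts that ran from 2.02-fold for Thbs3 to 33.0-fold for Thbs2. Ccn3, Ccn4, Ccn5, Thbs2, Thbs3, Sparc and Fn1, 7 of the 10, were 2-fold or more higher in ORS. Of all 13285 measured genes, 4.85% were. Ccn1, Ccn2 and Thbs1 were less than 2-fold apart, each with the higher signal in early bulge. None of the 10 was 2-fold or more higher there, against 7.34% of all measured genes. At 4-fold, 5 of the 10 were higher in ORS and none in early bulge, against 1.33% and 1.9% of all measured genes. The median log2 ratio of early bulge over ORS was -1.57 over the 10 genes and 0.04 over all measured genes. A gene counted as measured when its brightest probe set, by mean log2 signal, reached a floor of 57.9 on at least 1 array, the 40th percentile of all signals, below which values were not ordered. With a floor at the 60th percentile (a signal of 172.2), the number of these genes 2-fold or more higher in ORS was 4 in place of 7. Ccn4, Ccn5 and Thbs3 dropped out, whose ORS signals of 234.5, 176.1 and 268.6 were less than 2-fold above that floor.

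**Figure D1:**
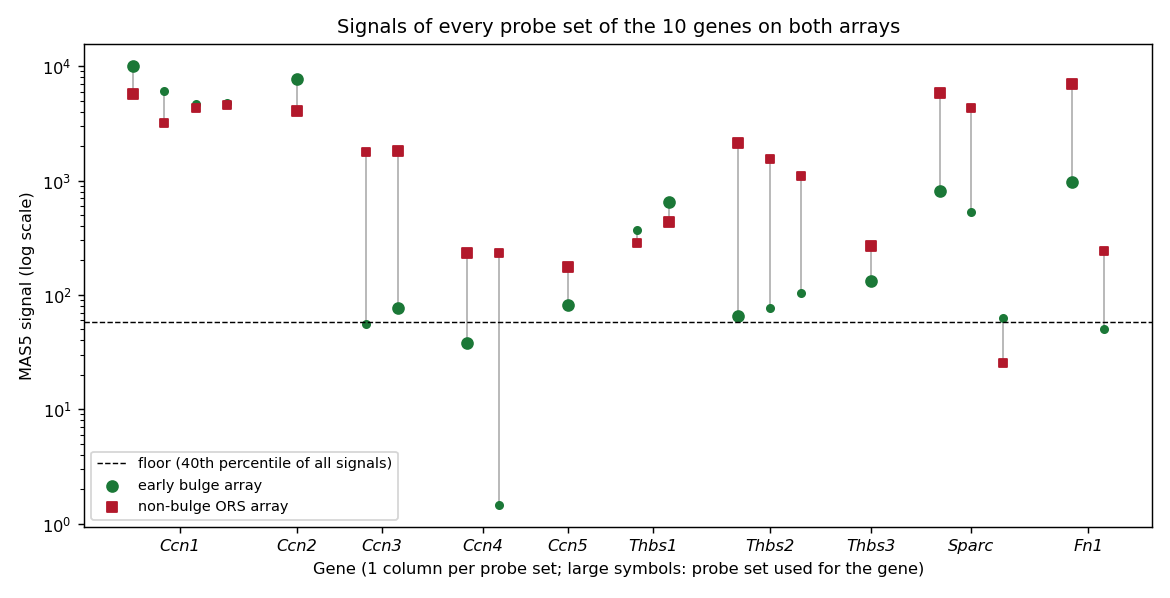
MAS5 signals (log scale) of all 21 probe sets of the 10 genes for early bulge (circles) and ORS (squares), with the floor of 57.9 as a dashed line. Large symbols mark the probe set used for the gene. Thbs2 and Ccn3 have early bulge signals near the floor and ORS signals of 1094 or more, whereas the squares of Ccn1, Ccn2 and Thbs1 lie below their circles.

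Among single probe sets, 13 of 21 were 2-fold or more higher in ORS, against 4.44% of 24120 measured probe sets with 1 gene. None of the 21 was 2-fold or more higher in early bulge, against 6.75%. Both arrays were above the floor for 16 of the 21. On 4 probe sets the early bulge signal was below it, and on 1 the ORS signal was, so those 5 ratios are bounds. The only measure of spread in these data is technical, between probe sets of one gene. Over 15282 pairs of probe sets above the floor on both arrays, the log2 ratios of 2 probe sets of a gene differed with an SD of 0.50.

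Ccn1 and Ccn2 are secreted CCN proteins that bind integrins and heparan sulphate, and both are induced rapidly by serum and by Yap and Taz. The 4 probe sets of Ccn1 had signals of 10044, 6039.7, 4639 and 4729 in early bulge and 5717, 3176, 4281 and 4551 in ORS. The first pair of probe sets was 1.76-fold and 1.90-fold higher in early bulge, and the second pair, which the annotation ties to one and the same target sequence, 1.08-fold and 1.04-fold. The pairs differed by up to 0.87 on the log2 scale, which is 1.73 times the SD between probe sets. The value used for Ccn1, 1.76-fold, came from a probe set with the suffix _x, explained under Ccn3 below. Only the last of the 4, at 1.04-fold, had no suffix. Ccn2, with 1 probe set, had signals of 7675 and 4041 and was 1.90-fold higher in early bulge. Both genes were thus well above the floor in both populations, and neither reached 2-fold on any probe set.

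The promoter window of Ccn1 is shown because TEAD factors, the DNA-binding partners of Yap and Taz, act on this gene. It covers 250 bases before to 50 after the start in RefSeq (GRCm38.p6, chr3:145649936-145650235, minus strand), and capitals mark matches to searched motifs.
Ccn1: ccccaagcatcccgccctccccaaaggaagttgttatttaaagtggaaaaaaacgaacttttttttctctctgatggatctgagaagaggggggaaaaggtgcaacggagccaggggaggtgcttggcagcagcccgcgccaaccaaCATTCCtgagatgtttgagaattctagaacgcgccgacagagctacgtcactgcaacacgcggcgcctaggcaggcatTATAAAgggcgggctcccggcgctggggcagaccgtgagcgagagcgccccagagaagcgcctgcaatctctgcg
The first capitals, 103 bases before the start, match the TEAD motif GGAATG on the opposite strand, and the second, 25 bases before it, the TATA box TATAAA. Of 32851 promoter windows of the same length, 14.7% held the TEAD motif and 13.6% the TATA motif on either strand. AP-1 (TGANTCA), the SMAD motif CAGACA and the CArG box of serum response factor, present in 7.81%, 21.0% and 1.63% of windows, had no match in that window, and no motifs overlapped. Windows were held for 4 of the 10 genes, Ccn1, Thbs2, Thbs3 and Sparc, and not for Ccn2, Ccn3, Ccn4, Ccn5, Thbs1 and Fn1.

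Ccn3, a CCN protein named for its overexpression in a viral kidney tumour and able to restrain proliferation, came second to Thbs2 in the size of its ratio. Its probe sets had signals of 55.2 and 77.5 in early bulge and 1763 and 1827 in ORS. The second was 23.6-fold higher in ORS. The first was below the floor in early bulge, so it was at least 30.4-fold higher in ORS. Only 7 of 13285 genes had a lower log2 ratio of early bulge over ORS than Ccn3 (-4.56). In that ranking, the 554 measured genes below the floor in early bulge stood at their bounds and could lie lower. The early bulge signal of Ccn3 was near the floor, and across processing settings its log2 ratio ran from -4.93 to -3.41. Both probe sets were designed to one target sequence and carry suffixes (_a and _x) that mark probes shared by transcripts of the gene or similar to other transcripts, and no Ccn3 probe set without a suffix was on the array.

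Ccn4 and Ccn5, both described first as Wnt-induced secreted proteins, were dim. Ccn4 had early bulge signals of 38.3 and 1.46, below the floor on both probe sets, and ORS signals of 234.5 and 233.5. It was therefore at least 4.05-fold and at least 4.03-fold higher in ORS. Ccn5 had signals of 81.2 and 176.1 and was 2.17-fold higher in ORS. Ccn4 and Ccn5 had log2 ratios of -0.45 and -0.03 with the floor at the 60th percentile. Across the 5 CCN genes the log2 ratios spanned 5.48, from -4.56 for Ccn3 to 0.93 for Ccn2.

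**Figure D2:**
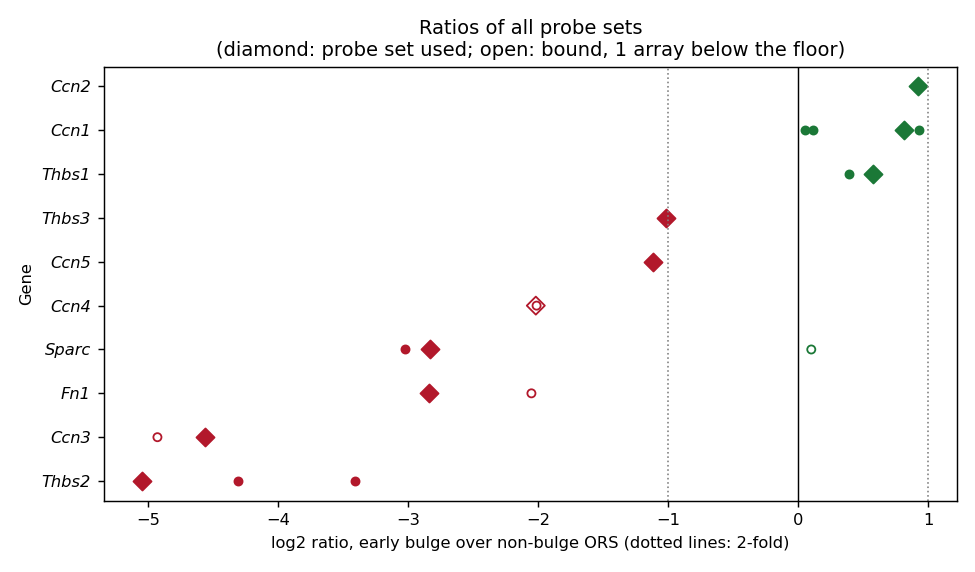
Log2 ratios of early bulge over ORS for every probe set, with genes ordered by the probe set used (diamonds) and bounds drawn open. Dotted lines mark 2-fold. All probe sets of Thbs2, Ccn3, Fn1, Ccn4, Ccn5 and Thbs3 lie left of the left dotted line, those of Thbs1, Ccn1 and Ccn2 lie between 0 and the right one, and Sparc has probe sets on either side of 0.

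Thbs1 and Thbs2 are close relatives with type 1 repeats that inhibit blood vessel growth, and Thbs1 can also activate latent TGF-beta. The higher signal was in early bulge for Thbs1, by less than 2-fold, and in ORS for Thbs2. Thbs1 had signals of 371.0 and 648.3 in early bulge and 282.7 and 435.4 in ORS, and was 1.31-fold and 1.49-fold higher in early bulge. A further probe set that the annotation shares between Thbs1 and another gene was not used. Thbs2 had signals of 64.9, 77.4 and 103.1 in early bulge and 2141, 1532 and 1094 in ORS. It was 33.0-fold, 19.8-fold and 10.6-fold higher in ORS. The 3 Thbs2 probe sets kept direction and 4-fold size, but the outermost log2 ratios, -5.04 and -3.41, came from probe sets for one and the same transcript record and differed by 3.25 times the SD between probe sets. By its brightest probe set, and with bounds ranked at their floored values, only 2 of the 13285 genes had a lower ratio than Thbs2. The early bulge signal of that probe set was near the floor. Across processing settings the log2 ratio of Thbs2 ran from -5.15 to -3.41. Thbs3, which lacks the type 1 repeats, had signals of 132.9 and 268.6 and was 2.02-fold higher in ORS, just past the 2-fold line. Its log2 ratio was -0.64 with the floor at the 60th percentile.

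The promoter window of Thbs2, the member with the largest ratio, is shown beside that of Sparc, the other gene far higher in ORS for which a window was held. Both are from RefSeq (GRCm38.p6), Thbs2 at chr17:14694213-14694512 and Sparc at chr11:55420031-55420330, both on the minus strand, with capitals on motif matches.
Thbs2: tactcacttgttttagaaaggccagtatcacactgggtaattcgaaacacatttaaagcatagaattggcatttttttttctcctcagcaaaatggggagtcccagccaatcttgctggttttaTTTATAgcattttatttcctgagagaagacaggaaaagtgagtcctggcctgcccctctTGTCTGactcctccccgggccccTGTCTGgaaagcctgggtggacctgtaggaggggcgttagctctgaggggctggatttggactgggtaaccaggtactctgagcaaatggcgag
Sparc: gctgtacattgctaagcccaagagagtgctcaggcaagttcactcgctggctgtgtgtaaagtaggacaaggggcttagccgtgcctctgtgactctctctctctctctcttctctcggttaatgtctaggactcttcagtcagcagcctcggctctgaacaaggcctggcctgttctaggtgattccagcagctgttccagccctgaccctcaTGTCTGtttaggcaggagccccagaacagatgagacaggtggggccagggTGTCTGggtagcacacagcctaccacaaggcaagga
Each window held the SMAD motif CAGACA at 2 places, on the strand opposite the gene and therefore read as TGTCTG. In Thbs2 they began 67 and 44 bases before the start, and in Sparc 36 bases before it and at base 15 after it. Thbs2 also matched the TATA motif on the opposite strand, 126 bases before the start. Neither window held the TEAD, AP-1 or CArG motif, and the Thbs3 window held none of the 5 motifs. The SMAD motif was in 21.0% of all windows, and a match of letters does not show binding.

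Sparc and Fn1 were bright in ORS. Sparc is a collagen-binding glycoprotein of remodelling tissue. Its probe sets had signals of 811.7, 528.9 and 62.1 in early bulge and 5781, 4297 and 25.4 in ORS. The first pair, designed to one target sequence, was 7.12-fold and 8.12-fold higher in ORS. The third targets another sequence, was dim on both arrays and had the higher signal in early bulge, by at least 1.07-fold. Fn1 encodes fibronectin, the fibril-forming adhesion protein of provisional matrix. Its signals were 967.9 and 50.7 in early bulge and 6938 and 240.0 in ORS. It was 7.17-fold and, with the early bulge signal below the floor, at least 4.14-fold higher in ORS. By the brightest probe set, Fn1 and Sparc had log2 ratios of -2.84 and -2.83.

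In the order of their log2 ratios, the genes ran Thbs2, Ccn3, Fn1, Sparc, Ccn4, Ccn5, Thbs3, Thbs1, Ccn1 and Ccn2. Neighbours in that order closer than the SD between probe sets (0.50) were Thbs2 and Ccn3 (0.49 apart), Fn1 and Sparc (0.01), Ccn5 and Thbs3 (0.10), Thbs1 and Ccn1 (0.24), and Ccn1 and Ccn2 (0.11). The place of Ccn4 rests on a bound. The widest gaps were between Ccn3 and Fn1 (1.72) and between Thbs3 and Thbs1 (1.59), the latter separating the genes higher in ORS from those higher in early bulge.

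Markers of dermal fibroblasts differed in the direction of the 7 genes. Of 19 measured dermal fibroblast markers, 18 were 2-fold or more higher in ORS and none in early bulge. Of all measured genes, 4.85% and 7.34% were, in that order. The markers had a median log2 ratio of -3.57 and a range from -5.00 (Lox) to -0.38 (Col5a1). This median was -1.61 over the dimmest probe set of each gene that reached the floor. The summed signal of the 19 was 11270 in early bulge and 78732 in ORS. Pdgfra, Ogn, Mfap5, Dpp4, Twist1 and Prrx1 were below the floor in early bulge, and none of the 19 was below it in ORS. Lum, a collagen-binding proteoglycan, was 29.9-fold, and Dpt, a dermal matrix protein, 22.5-fold higher in ORS, and Lox, a collagen crosslinking enzyme, 31.9-fold. Ogn, another proteoglycan of the dermis, was at least 20.1-fold higher, although a second probe set had a log2 ratio of -1.14. With bounds ranked at their floored values, the ratio of Thbs2 lay beyond all 19 markers towards ORS and that of Ccn3 beyond 17. The ratios of Sparc and Fn1 lay beyond 5, of Ccn4 beyond 4, and of Ccn5 and Thbs3 beyond 1, while Ccn1, Ccn2 and Thbs1 lay beyond none. The 6 markers below the floor in early bulge could lie further towards ORS, and so could Ccn4, so these places are not settled. The part of dermal cells in the ratios of the 7 genes was not tested, and in bulk RNA fewer cells of a type and less RNA per cell cannot be told apart.

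Of 12 pericyte and smooth muscle markers, 5 were 2-fold or more higher in ORS, against 4.85% of all measured genes. The markers had a median log2 ratio of -0.56 that was -1.11 with the floor at the 20th percentile. Their summed signal was 5097 in early bulge and 20200 in ORS. The remaining 7 stayed under 2-fold, and 3 of these leaned towards early bulge. Those were Des (log2 ratio 0.71, a bound), Mcam (0.18) and Abcc9 (0.04, a bound), named after their values were seen. The actin-binding protein Tagln was 34.1-fold, the smooth muscle actin Acta2 8.58-fold, the receptor Pdgfrb 7.05-fold and Rgs5 2.56-fold higher in ORS, although another Rgs5 probe set gave a log2 ratio of 0.74. With the floor at the 60th percentile the 5 were 3. Over probe sets without a suffix they were also 3, since those of Pdgfrb and Acta2 were below the floor. All 11 keratinocyte markers were measured on both arrays (median 0.81, summed signal 119178 and 68571). All had the higher signal in early bulge, as did 7051 of all 13285 measured genes. By at least 2-fold, 4 were higher there, against 7.34% of all measured genes. They were the hemidesmosome collagen Col17a1 (log2 ratio 2.38), the laminin chain Lamb3 (3.96-fold), Krt14 (2.23-fold) and the adhesion protein Cdh1 (2.03-fold). Over probe sets without a suffix 7 of the 11 were measured, and Col17a1 and Lamb3, which have none, were not among them. Sox9, whose reporter set the gates apart, was 6.01-fold higher in early bulge.

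Markers of vessels, blood and nerve were few or dim, whereas most dermal papilla and melanocyte markers were measured. At 2-fold or more, 4.85% of all measured genes were higher in ORS and 7.34% in early bulge. Among 6 measured endothelial markers 1 was 2-fold or more higher in ORS, the receptor Tek (4.09-fold), and Pecam1, Cdh5, Tie1, Emcn and Vwf were below the floor on both arrays. Kdr, Cldn5 and Esam had log2 ratios of -0.40, -0.62 and 0.78, the first pair as bounds, and the list median was -0.40 with summed signals of 601.7 and 905.6. Of 13 immune markers 5 were measured and none was 2-fold apart (median 0.17, summed signals 858.3 and 757.4). They included Cd74 (0.75), Lyz2 (-0.82), Csf1r (0.17) and Cd68 (0.71, a bound). Platelets are a rich source of thrombospondin 1, and 4 megakaryocyte and platelet markers were measured, none 2-fold apart (median -0.16, summed signals 854.7 and 966.9). These were Pf4 (-0.86), Itga2b (-0.14), Treml1 (-0.17) and Gp1bb (0.19). Of 10 dermal papilla markers, the membrane glycoprotein Prom1 was 3.47-fold and the protease Corin at least 2.91-fold higher in ORS, Alx4 and Inhba had log2 ratios of 0.73 and -0.64, and the median was -0.17 (summed signals 2164 and 2657). Of 9 melanocyte markers, Kit (7.08-fold) and Ednrb (3.09-fold) were higher in ORS and Slc45a2 (2.41-fold) in early bulge, with Tyrp1 at 0.78 and a median of 0.18 (summed signals 3256 and 4107). Kit had a second probe set at -0.91 and Ednrb one at 0.35 (log2 ratios). Of 3 measured Schwann cell markers, S100b (2.59-fold) and Mbp (2.43-fold) were higher in early bulge and Sox10 had a log2 ratio of 0.34 (median 1.28, summed signals 718.0 and 338.1). Other probe sets of S100b and Mbp gave log2 ratios as low as 0.77 and 0.05.

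**Figure D3:**
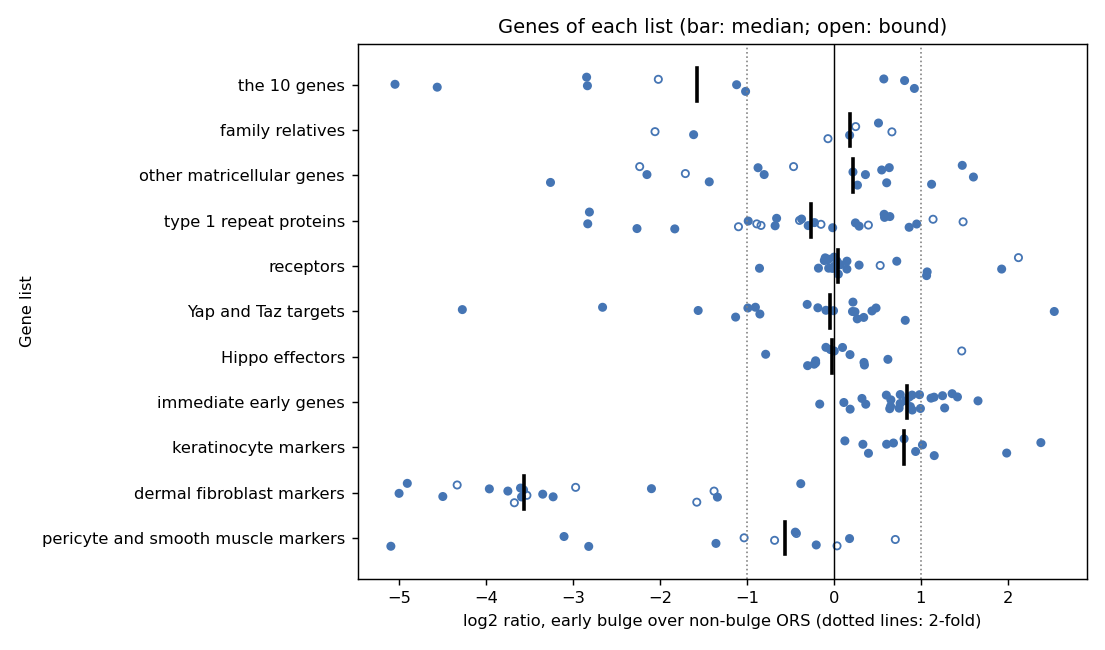
Log2 ratios of early bulge over ORS for every measured gene of the 10 genes and of 10 other lists, with black bars at the medians and open circles for bounds. The dermal fibroblast markers lie between -5.00 and -0.38, the immediate early genes between -0.16 and 1.66, and the 10 genes spread over both ranges.

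Genes of the rapid transcriptional response, to which Ccn1 and Ccn2 belong, leaned the same way as Ccn1, Ccn2 and Thbs1. Such genes are also induced when tissue is dissociated. All 26 immediate early genes were above the floor on both arrays (median 0.85). Of these, 25 had the higher signal in early bulge, as did 7051 of all 13285 measured genes. At 2-fold or more, 7 were higher there, against 7.34% of all measured genes. The phosphatase Dusp5 was 3.15-fold, the AP-1 subunit Fosl2 2.68-fold, the antiproliferative Btg2 2.57-fold and the mRNA decay factor Zfp36 2.42-fold higher. Their summed signal was 217751 in early bulge and 134815 in ORS. Of these 26 genes, 9 had a higher ratio than Ccn2, 14 than Ccn1 and 21 than Thbs1. The part of dissociation in the ratios of Ccn1, Ccn2 and Thbs1 was not tested.

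The other Yap and Taz targets and the effectors themselves had median log2 ratios close to that of all measured genes (0.04). Of 20 measured targets besides Ccn1 and Ccn2, 4 were 2-fold or more higher in ORS and 1 in early bulge. Of all measured genes, 4.85% and 7.34% were, in that order. The median log2 ratio of the targets was -0.05. The growth factor Tgfb2 was 5.79-fold higher in early bulge. The secreted protein Ccdc80 (19.3-fold), the IGF-binding protein Igfbp3 (6.31-fold), tissue factor F3 (2.95-fold) and the receptor kinase Axl (log2 ratio -1.13, named after its value was seen) were higher in ORS. The muscle and cardiac target Ankrd1 was below the floor on both arrays, as was Foxf2. Among 14 Hippo effectors (median -0.02) 1, Tead4, was at least 2-fold apart, at least 2.77-fold higher in early bulge. By 2-fold or more, 7.34% of all measured genes were higher there. None of the effectors was 2-fold apart with the floor at the 60th percentile or the mean over probe sets. Wwtr1, which encodes Taz, had a log2 ratio of -0.78, Vgll4 0.62 and Lats1 0.35. Yap1, named after its value was seen, had 0.10.

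Of 22 measured receptors for these proteins, none was 2-fold or more higher in ORS and 4 were in early bulge, against 4.85% and 7.34% of all measured genes. The median log2 ratio was 0.04 for the receptors, as for all measured genes, and quantile normalization, loess or no floor put 1 receptor past 2-fold in ORS. The 4 higher in early bulge included the scavenger receptor Cd36 (at least 4.35-fold), which binds Thbs1 and Thbs2. The others were the TGF-beta-activating integrin chain Itgb8 (3.81-fold), the laminin-binding Itga6 (2.10-fold) and Itga4 (2.09-fold), a chain of a fibronectin receptor. With the floor at the 60th percentile, 2 in place of 4 passed. Chosen after their values were seen, the integrin chains Itgb1 and Itgav had log2 ratios of -0.10 and -0.02, the syndecan Sdc4 0.29 and the thrombospondin receptor Cd47 0.08. The fibronectin receptor chain Itga5 was near the floor, with signals of 83.8 and 49.3, and a second probe set had a log2 ratio of -0.51.

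Among the nearest relatives of the 10 genes, Ccn6, Thbs4 and Comp were dim. Ccn6 had signals of 28.8 in early bulge and 24.4 in ORS, and Thbs4 5.98 and 53.2, so neither was measured. Comp, the thrombospondin of cartilage, had signals of 33.1 and 60.7. Sparcl1, the closest relative of Sparc, had signals of 19.2 and 240.7 and was at least 4.16-fold higher in ORS. Of 7 measured relatives, Sparcl1 and the secreted glycoprotein Fstl1 (3.06-fold) were 2-fold or more higher in ORS and none in early bulge (median 0.18). Of all measured genes, 4.85% and 7.34% were, in that order. The basement membrane protein Smoc1 had a log2 ratio of 0.51 and the proteoglycan Spock3 a bound of 0.67.

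Other matricellular and glycoprotein genes went both ways. Of 17 measured, 5 were 2-fold or more higher in ORS and 3 in early bulge, with a median log2 ratio of 0.22. Of all measured genes, 4.85% and 7.34% were, in that order. The elastic fibre protein Fbln5 was 9.56-fold, the tenascin Tnxb at least 4.70-fold, Fbln7 4.43-fold and Emilin1 at least 3.26-fold higher in ORS, and Emilin2 had a log2 ratio of -1.43. The genes higher in early bulge were Tgfbi (1.60), Fbln2 (1.48) and the hemicentin Hmcn1 (1.12), named with Emilin2 after their values were seen. With the floor at the 60th percentile, 1 gene of this list in place of 5 was 2-fold or more higher in ORS.

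**Figure D4:**
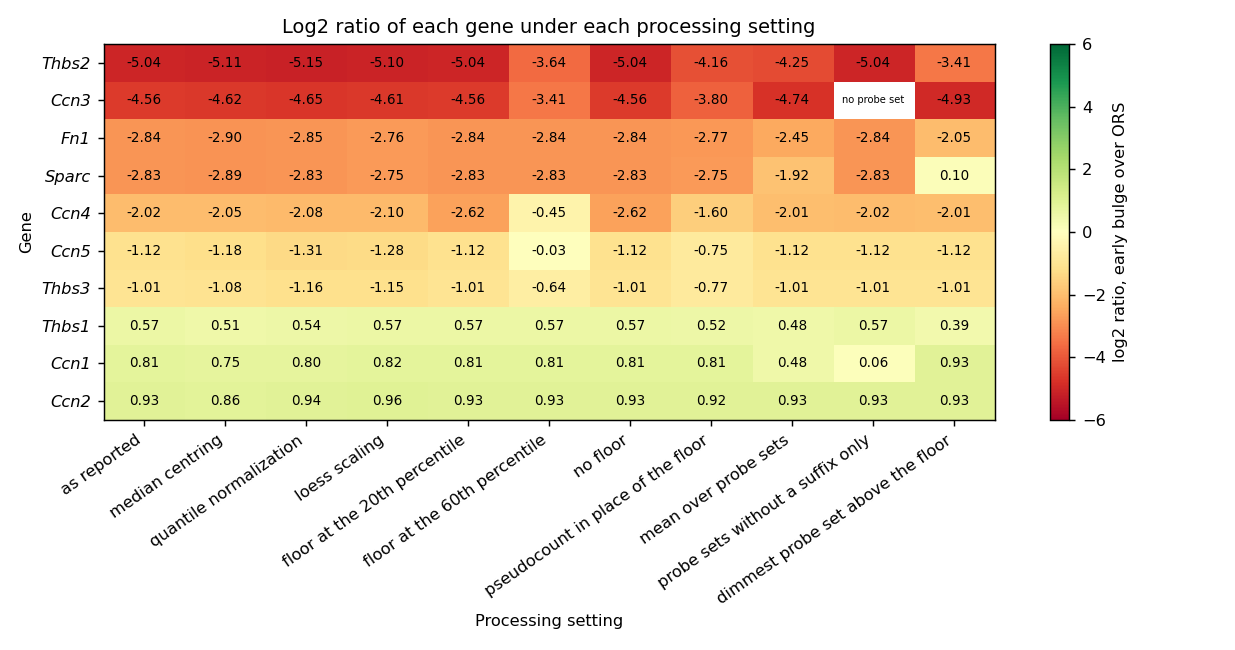
Log2 ratio of early bulge over ORS for each of the 10 genes (rows) under each processing setting (columns), coloured from red (ORS higher) to green (early bulge higher). Thbs2, Ccn3 and Fn1 stay below -2 wherever they are measured, Thbs1, Ccn1 and Ccn2 stay between 0 and 1, and the Sparc value changes sign where its dimmest probe set is used.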

How the data were processed

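RNA of each sorted population was labelled as biotinylated cRNA and hybridised to 1 Affymetrix expression array. The authors deposited 1 intensity per probe set and array on a linear scale. The submitters' processing notes name MAS5 and Affymetrix Expression Console. Versions and genome build are not given in the sources used here. The 2% trimmed mean was 500.0 on both arrays. MAS5 subtracts mismatch signal, so low values are noisy. Detection calls were not used here, and the number of arrays limits the precision.

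The members and lists were chosen with earlier results of these data known. All 10 members matched a RefSeq symbol (GRCm38.p6) by Entrez ID. Signals under 57.9 (the 40th percentile) were set to that floor, and each gene then took its brightest probe set by mean log2 value. A ratio with 1 array at the floor is a bound, written as at least N-fold. Controls and the probe sets without exactly 1 gene symbol were left out. Genes were counted at 2-fold and 4-fold. Named were all members, Ccn6, Thbs4, Comp and Sparcl1, up to 4 genes per list, those with the most extreme ratios, and genes that a small count singles out.

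The alternatives were median centring, quantile normalization, loess (span 0.4), a lower floor (20th percentile), a higher one (60th) and none. Others were a pseudocount of 57.9 added to each signal and the mean over probe sets. The last were probe sets without a suffix and the dimmest probe set above the floor. With the pseudocount, signals were not raised to the floor, but genes below it on both arrays were still left out. Calculations used Python 3.11.15 and were tested on simulated arrays. With 1 array per group no alternative has a test, and a value was counted as moved when it shifted by more than 0.36 on the log2 scale, the SD of a single probe set. Lists of type 1 repeat proteins and of TGF-beta ligands, latency and response are given in the closing observations.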

Additional observations from a re-analysis of the deposited data

How the results depend on the processing

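Of the 10 genes, 7 were 2-fold or more higher in ORS after median centring, quantile normalization or loess, with the lower floor (20th percentile), without one and with the mean over probe sets. The count was 6 over probe sets without a suffix or over the dimmest ones, 5 with a pseudocount and 4 with the floor at the 60th percentile. That floor also gave 8 probe sets in place of 13. None of the 10 was 2-fold or more higher in early bulge under any of the 10 alternatives. A single probe set of Sparc was, 1 in place of 0, with the lower floor or none. The median log2 ratio of -1.57 was -0.54 with the floor at the 60th percentile, -1.19 with a pseudocount, -1.12 over probe sets without a suffix, where Ccn3 has none, and -1.07 over the dimmest probe sets. The ratio of Sparc changed sign there, to 0.10. Of the log2 ratios of single genes under the alternatives, 80 shifted by less than 0.36, 18 by more while keeping their sign, and 1 reversed. For the other lists, 160 medians shifted by less than 0.36 and 10 by more, and 146 counts of genes higher in ORS and 147 of genes higher in early bulge stayed within 1.5 times, while 24 and 23 did not. The cause of these shifts was not tested beyond the construction of each setting. No paired analysis was possible because each group has 1 array. Low signals limit Ccn4, Ccn5 and Thbs3.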

Other observations

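Proteins that share the thrombospondin type 1 repeat with Thbs1, Thbs2 and the CCN family were also counted. Of the 26 above the floor, 5 were 2-fold or more higher in ORS and 2 in early bulge, with a median log2 ratio of -0.26. Of all measured genes, 4.85% and 7.34% were, in that order. The proteoglycan-cleaving Adamts5 was 7.10-fold, the matrix protein Spon1 7.01-fold, Adamts12 4.80-fold and Adamts20 3.55-fold higher in ORS. The genes higher in early bulge were Adamts15 (at least 2.80-fold) and Adamts7 (at least 2.20-fold), both named after their values were seen. With the floor at the 20th percentile, 10 genes in place of 5 passed 2-fold towards ORS. The 2 genes higher in early bulge were 1 with a pseudocount and 0 with the 60th percentile as the floor.

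Of 11 measured TGF-beta ligands, latency proteins, receptors and response genes, 2 were 2-fold or more higher in early bulge and 1 in ORS. Of all measured genes, 7.34% and 4.85% were, in that order. The ligand Tgfb2, also higher in early bulge, was counted with the Yap and Taz targets and is not among the 11. In the list, the ligand Tgfb3 was 8.74-fold and the latency protein Ltbp1 7.99-fold higher in early bulge. The feedback inhibitor Smad7 was 2.17-fold higher in ORS (a second probe set had a log2 ratio of -0.17), and Ltbp2 had a log2 ratio of -0.94. The median of the list was -0.09. With the mean over probe sets, 1 gene passed 2-fold in early bulge and none in ORS.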
